A study of Mus musculus with 11 samples.

Results

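The 40 genes described here encode the machinery that copies DNA in S phase: origin licensing factors and the MCM helicase, helicase activators, the sliding clamp and its loader, replicative polymerases and primase, single-strand binding proteins, Okazaki fragment enzymes, nucleotide-supplying enzymes, chromatin-copying factors and the transcription factor E2f1. They were found by exact gene symbol among transcript clusters annotated with a single symbol, and the cluster with the highest mean level stood for a gene with several. All 40 were measured, out of 19946 genes in all. The rule finds them by symbol alone, but the list itself was chosen with earlier results of these data known. Before S phase, CDC6 and CDT1 load the MCM helicase onto origins of replication, and in S phase the helicase is switched on and polymerases copy both strands behind it. Transcription of most of these genes is switched on late in G1 by E2F factors released from the retinoblastoma protein. In the colon and rectum, dividing cells lie in the lower part of the crypts, and the cells stop replicating as they move up and differentiate.

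The series profiled rectal mucosa of 11 mice aged 10 weeks on Affymetrix Mouse Gene 1.0 ST arrays, with 1 array per mouse, to characterise the loss of integrin alpha 6 (Itga6), a laminin receptor subunit of epithelial hemidesmosomes, from intestinal epithelial cells. Mice labelled mutant carried the inducible model α6ΔIEC-TAM. In 4 of them the deletion was induced with tamoxifen at 10 mg per day, gavaged every other day over 5 days from 8 weeks of age, and 4 others received NaCl in its place. The 3 control mice were labelled wild type and received tamoxifen, and all tissue was taken 15 days after gavage began. Which promoter drives the recombinase is not given in the sources used here. The labels name 1 male array in each mutant group and 2 in the control group, so sex was a term in the fit. Each p-value sets a fitted difference against the spread between these single animals, and the number of arrays limits the precision.

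Array medians lay between 7.295 and 7.35 on the log2 scale. Itga6 read 11.75, 11.93, 11.84 and 11.77 in the arrays labelled mutant tamoxifen, 11.15, 11.52 and 11.49 in control tamoxifen, and 11.39, 11.28, 11.49 and 11.47 in mutant NaCl. The targeted gene was therefore higher, not lower, in the arrays labelled mutant tamoxifen, by a log2 difference of 0.42 from control tamoxifen (limma adjusted p = 0.0095) and 0.41 from mutant NaCl (limma adjusted p = 0.0053). This goes against the direction of a deletion; the files do not say whether the probes lie in the deleted part, so every direction given below is for the arrays as labelled. Epithelial markers (10 genes such as Epcam and Vil1) had mean log2 levels from 11.89 to 12.16 in the 11 arrays, so the epithelium of the labelled tissue was present in each.

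Most of the 40 replication genes were higher in the arrays labelled mutant tamoxifen than in control tamoxifen. With limma and Benjamini-Hochberg adjustment over all genes at 0.05, 36 of the 40 genes rose and 0 fell (0 lower at an unadjusted p under 0.05 as well), where 12.9% of all genes rose and 11.8% fell. The fitted log2 difference was above 0 for all 40, from 0.04 for Rfc2, a clamp loader subunit, to 1.29 for Rrm2, the S-phase subunit of ribonucleotide reductase. The median was 0.58, or 1.49-fold, beside a median of -0.023 over all genes tested. The changes were mostly moderate: 20 genes were at least 1.5-fold higher and 1 was at least 2-fold higher. Against mutant NaCl, 33 of the 40 rose and 0 fell, where 12.5% of all genes rose and 10.7% fell, and the median log2 difference was 0.46, or 1.38-fold, beside -0.009 over all genes. With female arrays alone, which leaves 1 control array, 22 genes rose against control tamoxifen, and 3.93% of all genes rose. Both comparisons share the mutant tamoxifen arrays and so are not independent.

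The mutant tamoxifen arrays stood apart from the other groups with little overlap. The mean log2 level over the 40 genes was 9.11, 9.13, 9.21 and 9.08 in mutant tamoxifen, 8.39, 8.61 and 8.78 in control tamoxifen, and 8.82, 8.67, 8.59 and 8.75 in mutant NaCl. Every mutant tamoxifen array thus lay above the 7 others, while mutant NaCl and control tamoxifen overlapped. Gene by gene, all 4 mutant tamoxifen arrays lay above all controls for 37 of the 40 genes (17.3% of all genes), above all mutant NaCl arrays for 32 (14.2%), and above all 7 others for 32 (12%). The heat map of the 40 genes by array shows this block of higher values.

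**Figure D1:**
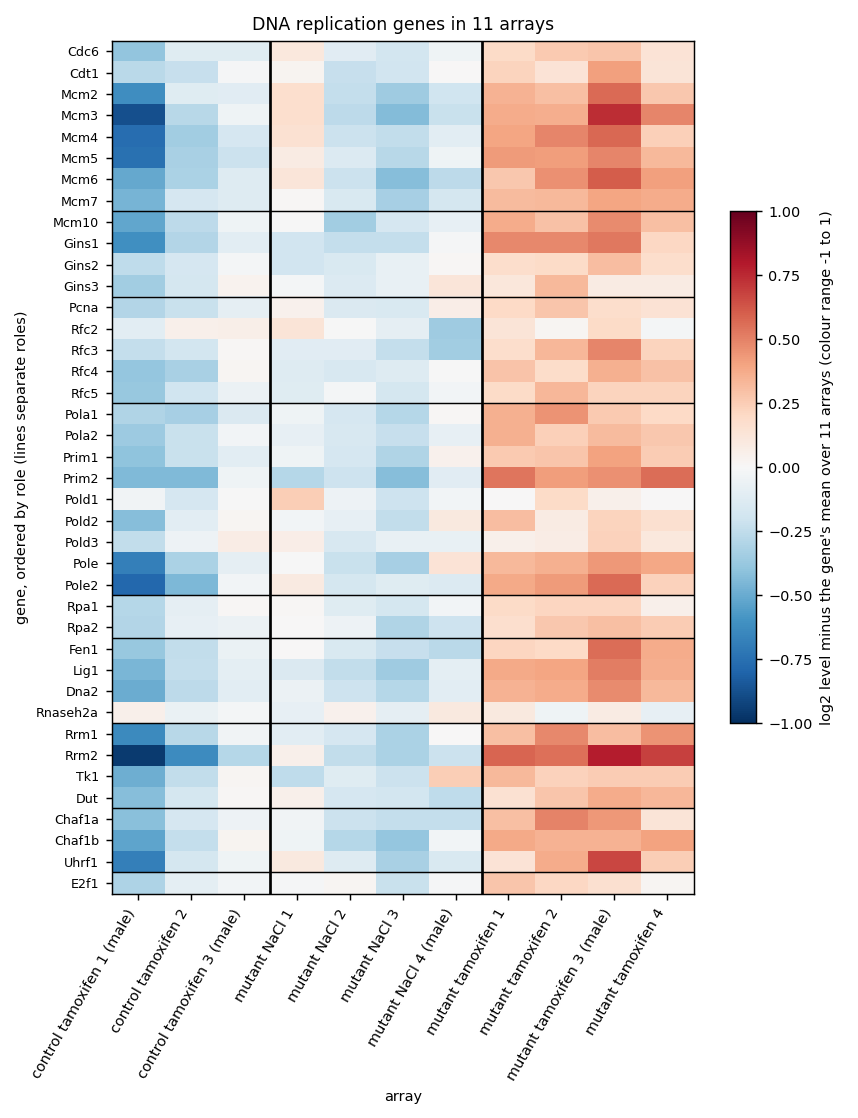
Heat map of the 40 replication genes (rows, ordered by role) in the 11 arrays (columns, by labelled group); colour is the log2 level minus the gene's mean over all arrays. The 4 arrays labelled mutant tamoxifen are high in nearly every row, control tamoxifen replicate 1 is the lowest array in 33 rows, and rows such as Rfc2, Pold1 and Rnaseh2a show little contrast.

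Because transcription of most of these genes is switched on by E2F factors, their promoters were read for the motif those factors bind. The share of genes with a motif describes the list and not the differences between groups. Windows of 250 bases before to 50 after the RefSeq gene start (GRCm38.p6) were on hand for 34 of the 40 genes, and some genes had several windows. A gene was counted once if any of its windows held the motif. The E2F words TTTCCCGC, TTTCGCGC, TTTGCCGC and TTTGGCGC, searched on both strands and able to overlap one another, occurred in 14 of the 34 genes (41.2%) and in 543 of 15619 tested genes with a window (3.5%). The CCAAT box, bound by NF-Y at many cell cycle promoters, occurred in 19 (55.9%, against 41.7% of those 15619 genes), and TTTGAA, the core of the CHR motif of mitotic genes, in 4 (11.8%, against 17.3%). Of the related lists described below, 7 of 17 G1/S control genes (41.2%) and 7 of 34 other replication genes (20.6%) held an E2F word. The E2F share was thus not particular to the 40 genes. The median GC content was 61.3% for the replication windows and 57.3% for all. A match is a description of the letters, not a bound site, and the absence of one says only that these letters are not in the window.

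Below are the 170 bases before the start of 6 genes, 5′ to 3′ on the gene's strand, with E2F words and CCAAT boxes (ATTGG when on the other strand) in capitals. Mcm6 and Mcm5, subunits of the MCM helicase, are shown because their E2F words overlap, and Cdc6 and Pola1 because each holds 1 such word. Rrm2, which had the largest difference, and Rnaseh2a, whose difference was not past the threshold, are shown as genes with a CCAAT box and none of the E2F words. Rnaseh2a does not stand for the genes not called against control tamoxifen. Of the 3 such genes with a window, 2 (Pold1 and Pold3) held an E2F word, as did 12 of 31 called genes (38.7%).
Mcm6 (chr1:128359706-128359875, - strand): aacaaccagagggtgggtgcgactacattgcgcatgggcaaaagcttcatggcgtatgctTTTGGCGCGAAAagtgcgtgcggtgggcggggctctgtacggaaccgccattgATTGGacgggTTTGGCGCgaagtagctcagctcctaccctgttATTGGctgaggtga
Mcm5 (chr8:75109339-75109508, + strand): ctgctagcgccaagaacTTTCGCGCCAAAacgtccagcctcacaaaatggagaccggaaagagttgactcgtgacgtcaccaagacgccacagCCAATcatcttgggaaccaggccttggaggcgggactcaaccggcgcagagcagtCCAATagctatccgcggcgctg
Cdc6 (chr11:98907981-98908150, + strand): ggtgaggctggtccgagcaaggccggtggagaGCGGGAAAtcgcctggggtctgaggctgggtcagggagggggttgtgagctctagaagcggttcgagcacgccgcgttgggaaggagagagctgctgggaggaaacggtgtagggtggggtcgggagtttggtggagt
Pola1 (chrX:93632156-93632325, - strand): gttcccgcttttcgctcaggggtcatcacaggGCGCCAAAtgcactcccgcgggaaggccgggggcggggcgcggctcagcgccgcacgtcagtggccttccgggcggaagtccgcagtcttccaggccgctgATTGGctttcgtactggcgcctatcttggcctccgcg
Rrm2 (chr12:24708084-24708253, + strand): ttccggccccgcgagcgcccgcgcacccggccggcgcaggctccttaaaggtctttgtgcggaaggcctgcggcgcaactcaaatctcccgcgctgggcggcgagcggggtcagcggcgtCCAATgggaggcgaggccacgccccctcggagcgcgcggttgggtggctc
Rnaseh2a (chr8:84966077-84966246, - strand): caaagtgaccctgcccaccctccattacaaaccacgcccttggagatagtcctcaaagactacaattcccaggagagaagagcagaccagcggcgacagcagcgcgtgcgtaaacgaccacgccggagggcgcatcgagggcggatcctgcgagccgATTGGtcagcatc

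In Mcm6 the E2F words began 110, 106 and 47 bases before the start, and the first 2 of these overlapped on opposite strands. In Mcm5 the overlapping words began 153 and 149 bases before the start, with CCAAT boxes at 77 and 22. Cdc6 and Pola1 each held their word at 138 bases. The median log2 difference from control tamoxifen was 0.60 for the 14 with a word, of which 12 rose, and 0.56 for the 20 without, of which 19 rose. The 6 genes with no window had a median of 0.80, and 5 of them rose.

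The 8 genes of the set that license origins or form the helicase rose in both comparisons of mutant tamoxifen. Their median log2 difference was 0.71 from control tamoxifen and 0.52 from mutant NaCl. Mcm5, a subunit of the helicase ring, had the smallest p among them: it read 10.28, 10.27, 10.34 and 10.18 in mutant tamoxifen, 9.11, 9.53 and 9.64 in control tamoxifen, and 9.94, 9.72, 9.58 and 9.81 in mutant NaCl. All mutant tamoxifen values lay above the 7 others, and the control values spread widest. The log2 difference from control tamoxifen was 0.85 ± 0.128 (SE; 1.8-fold, limma adjusted p = 0.00137), and from mutant NaCl 0.51 ± 0.111 (SE; limma adjusted p = 0.00837). The other ring subunits were higher than control tamoxifen by log2 differences of 0.91 for Mcm3, 0.86 for Mcm4, 0.77 for Mcm6, 0.66 for Mcm2 and 0.59 for Mcm7. The loaders moved less in the fit, with 0.42 for Cdc6 and 0.46 for Cdt1; the difference between loaders and ring subunits was not tested.

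Mcm10 and the GINS subunits help turn the loaded ring into a moving helicase. Of Mcm10, Gins1, Gins2 and Gins3, 4 rose against control tamoxifen and 3 against mutant NaCl. Gins4, which is outside the 40, differed by 0.16 (limma adjusted p = 0.249) and 0.22 (limma adjusted p = 0.0762). Gins1 read 7.23, 7.23, 7.28 and 6.96 in mutant tamoxifen, 6.14, 6.46 and 6.65 in control tamoxifen, and 6.56, 6.51, 6.51 and 6.74 in mutant NaCl. All mutant tamoxifen values lay above the 7 others, and replicate 4 was lowest of that group; control tamoxifen and mutant NaCl overlapped. The log2 difference from control tamoxifen was 0.80 ± 0.121 (SE; 1.74-fold, limma adjusted p = 0.00137), and from mutant NaCl 0.60 ± 0.105 (SE; limma adjusted p = 0.00284). Mcm10 was higher by 0.67 and Gins2 by 0.40 than in control tamoxifen. Gins3 read 7.08, 7.29, 7.05 and 7.05 in mutant tamoxifen, 6.62, 6.79 and 7.0 in control tamoxifen, and 6.95, 6.83, 6.89 and 7.09 in mutant NaCl. It rose against control tamoxifen by 0.33 ± 0.105 (SE; limma adjusted p = 0.0433), while against mutant NaCl, whose replicate 4 lay above 3 of the mutant tamoxifen arrays, the difference was 0.17 (limma adjusted p = 0.21).

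The sliding clamp Pcna, which tethers polymerases to DNA, rose against control tamoxifen by 0.42 ± 0.0729 (SE; limma adjusted p = 0.00248) and against mutant NaCl by 0.25 ± 0.0632 (SE; limma adjusted p = 0.0179). Of the 4 clamp loader subunits among the 40, 3 rose in both comparisons. Rfc4 read 10.05, 9.95, 10.12 and 10.06 in mutant tamoxifen, 9.38, 9.44 and 9.79 in control tamoxifen, and 9.64, 9.61, 9.64 and 9.76 in mutant NaCl, again without overlap between mutant tamoxifen and the rest. Its log2 difference was 0.56 ± 0.0874 (SE; 1.48-fold, limma adjusted p = 0.00156) from control tamoxifen and 0.39 ± 0.0759 (SE; limma adjusted p = 0.00467) from mutant NaCl. Rfc3 and Rfc5 were higher than control tamoxifen by 0.46 and 0.45. Rfc2 did not pass the threshold: it read 8.70, 8.59, 8.76 and 8.55 in mutant tamoxifen, 8.47, 8.62 and 8.63 in control tamoxifen, and 8.70, 8.57, 8.48 and 8.22 in mutant NaCl. The 3 groups overlapped, and its log2 difference from control tamoxifen was 0.04 (95% interval -0.20 to 0.27, limma adjusted p = 0.825). Rfc1, the large loader subunit and outside the 40, differed by 0.13 (limma adjusted p = 0.18) and by 0.14 from mutant NaCl (limma adjusted p = 0.102).

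Among the polymerases and primase, 7 of 9 rose against control tamoxifen and 6 of 9 against mutant NaCl. Prim2, the large primase subunit that helps make the RNA primers, read 9.49, 9.37, 9.41 and 9.51 in mutant tamoxifen, 8.51, 8.51 and 8.91 in control tamoxifen, and 8.67, 8.75, 8.53 and 8.84 in mutant NaCl. The mutant tamoxifen arrays stood clear of all others. Prim2 was higher by 0.85 ± 0.105 (SE; 1.8-fold, limma adjusted p = 0.000548) than in control tamoxifen and by 0.75 ± 0.0915 (SE; 1.68-fold, limma adjusted p = 0.000398) than in mutant NaCl. Its partners of the priming complex rose as well, by 0.59 for Prim1, 0.61 for Pola1 and 0.52 for Pola2 against control tamoxifen. So did Pole and Pole2 of the leading-strand polymerase, by 0.79 and 0.85.

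The lagging-strand polymerase delta moved less evenly. Its accessory subunit Pold2 read 10.78, 10.55, 10.69 and 10.63 in mutant tamoxifen, 10.04, 10.36 and 10.49 in control tamoxifen, and 10.44, 10.39, 10.22 and 10.57 in mutant NaCl. It rose against control tamoxifen by 0.39 ± 0.117 (SE; limma adjusted p = 0.033), and against mutant NaCl the difference was 0.26 (limma adjusted p = 0.0936). The catalytic subunit Pold1 read 8.11, 8.30, 8.16 and 8.11 in mutant tamoxifen, 8.07, 7.94 and 8.10 in control tamoxifen, and 8.35, 8.06, 7.90 and 8.08 in mutant NaCl. Mutant NaCl replicate 1 was the highest of all arrays, and the log2 difference from control tamoxifen was 0.15 (95% interval -0.08 to 0.38, limma adjusted p = 0.331). Pold3 read 9.71, 9.74, 9.89 and 9.77 in mutant tamoxifen, 9.42, 9.61 and 9.74 in control tamoxifen, and 9.73, 9.50, 9.59 and 9.59 in mutant NaCl. The groups overlapped, and the difference from control tamoxifen was 0.20 (95% interval 0.01 to 0.40, limma adjusted p = 0.123). These intervals leave room for increases of the size seen in several called genes, so a lack of change was not shown.

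**Figure D2:**
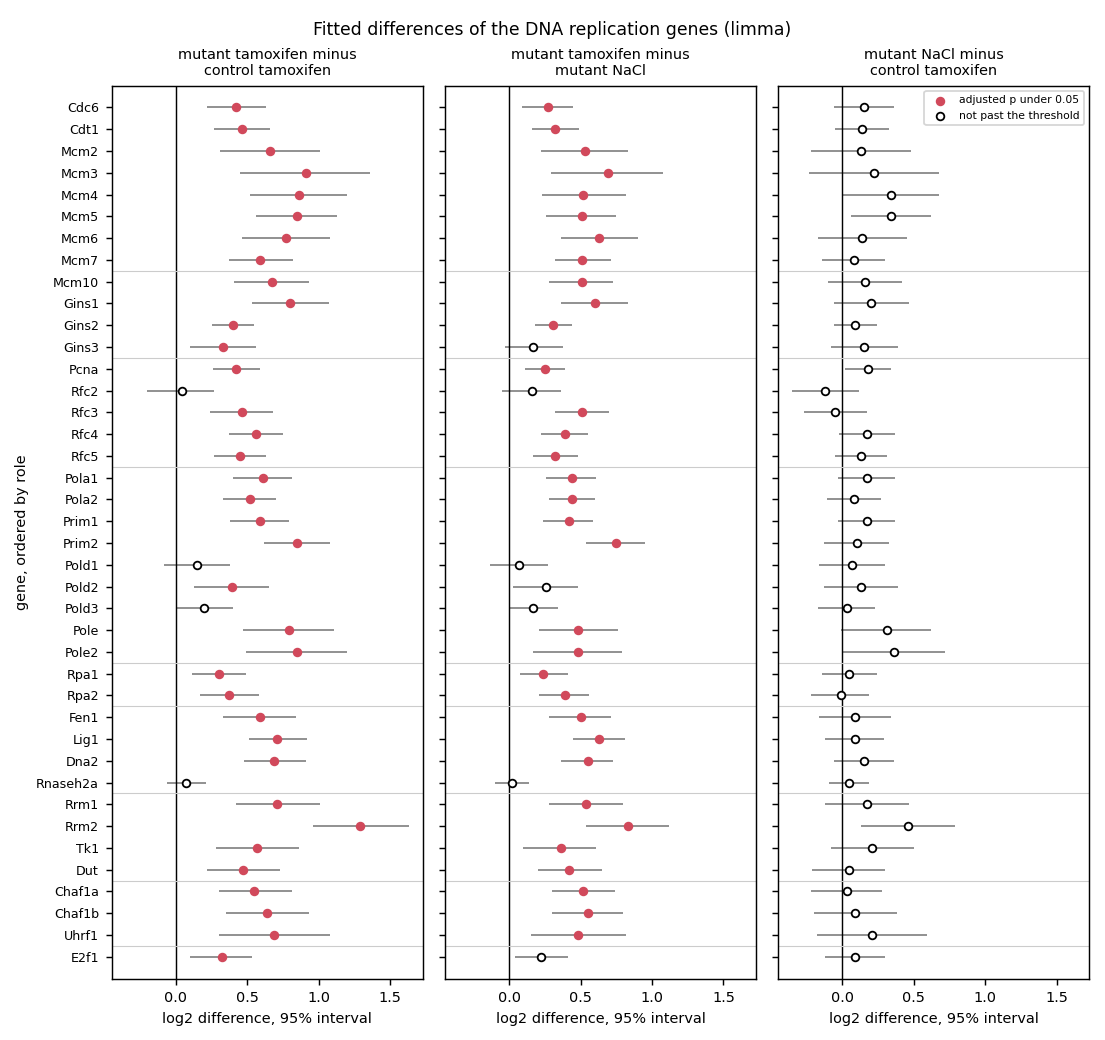
Fitted log2 differences of the 40 replication genes with 95% intervals, in panels for mutant tamoxifen minus control tamoxifen, mutant tamoxifen minus mutant NaCl, and mutant NaCl minus control tamoxifen; the marks separate genes past adjusted p of 0.05 from the rest. All 40 points lie above 0 in the first 2 panels, with 36 and 33 past the threshold, and 0 are past it in the last panel.

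Replication protein A coats single-stranded DNA, and its subunits Rpa1 and Rpa2 rose in both comparisons. The small subunit Rpa3, outside the 40, rose too, by 0.51 (limma adjusted p = 0.0079) and 0.33 (limma adjusted p = 0.0287). Rpa2 read 8.59, 8.69, 8.72 and 8.67 in mutant tamoxifen, 8.13, 8.34 and 8.36 in control tamoxifen, and 8.42, 8.37, 8.12 and 8.21 in mutant NaCl, with no overlap between mutant tamoxifen and the rest. Its log2 difference was 0.37 ± 0.0914 (SE; limma adjusted p = 0.0138) from control tamoxifen and 0.39 ± 0.0793 (SE; limma adjusted p = 0.00581) from mutant NaCl. Rpa1 was higher by 0.30 and 0.24. The call of Rpa2 against control tamoxifen was lost with female arrays alone (0.30, limma adjusted p = 0.187) and without mutant tamoxifen replicate 3 (0.31, limma adjusted p = 0.0986).

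Of the enzymes that finish Okazaki fragments, 3 of 4 rose in both comparisons. The ligase Lig1, which seals the nicks, read 9.33, 9.34, 9.46 and 9.31 in mutant tamoxifen, 8.49, 8.71 and 8.85 in control tamoxifen, and 8.80, 8.70, 8.59 and 8.85 in mutant NaCl. Every mutant tamoxifen value lay above the 7 others. Lig1 was higher by 0.71 ± 0.0935 (SE; 1.64-fold, limma adjusted p = 0.000714) than in control tamoxifen and by 0.63 ± 0.0812 (SE; 1.54-fold, limma adjusted p = 0.000546) than in mutant NaCl. The flap nucleases Dna2 and Fen1 rose by 0.69 and 0.59 against control tamoxifen. Rnaseh2a, the catalytic subunit of the RNase H2 that cuts RNA in RNA-DNA hybrids, read 9.90, 9.76, 9.88 and 9.72 in mutant tamoxifen, 9.85, 9.73 and 9.78 in control tamoxifen, and 9.72, 9.84, 9.71 and 9.90 in mutant NaCl. Its groups overlapped fully, and the difference from control tamoxifen was 0.07 (95% interval -0.06 to 0.21, limma adjusted p = 0.418).

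The 4 genes of the set for enzymes that supply nucleotides, Rrm1, Rrm2, Tk1 and Dut, rose in both comparisons. Rrm2 read 9.95, 9.92, 10.15 and 10.05 in mutant tamoxifen, 8.41, 8.74 and 9.08 in control tamoxifen, and 9.42, 9.12, 9.05 and 9.15 in mutant NaCl. The lowest mutant tamoxifen array was above the highest of the others, and control tamoxifen replicate 1 was the lowest of all arrays. The log2 difference was 1.29 ± 0.15 (SE; 2.45-fold, limma adjusted p = 0.000386) from control tamoxifen and 0.83 ± 0.13 (SE; 1.78-fold, limma adjusted p = 0.00148) from mutant NaCl, the largest of the 40 in both. Its partner subunit Rrm1 rose by 0.71 against control tamoxifen. The thymidine kinase Tk1 and the dUTPase Dut, which keeps uracil out of DNA, rose by 0.57 and 0.47.

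**Figure D3:**
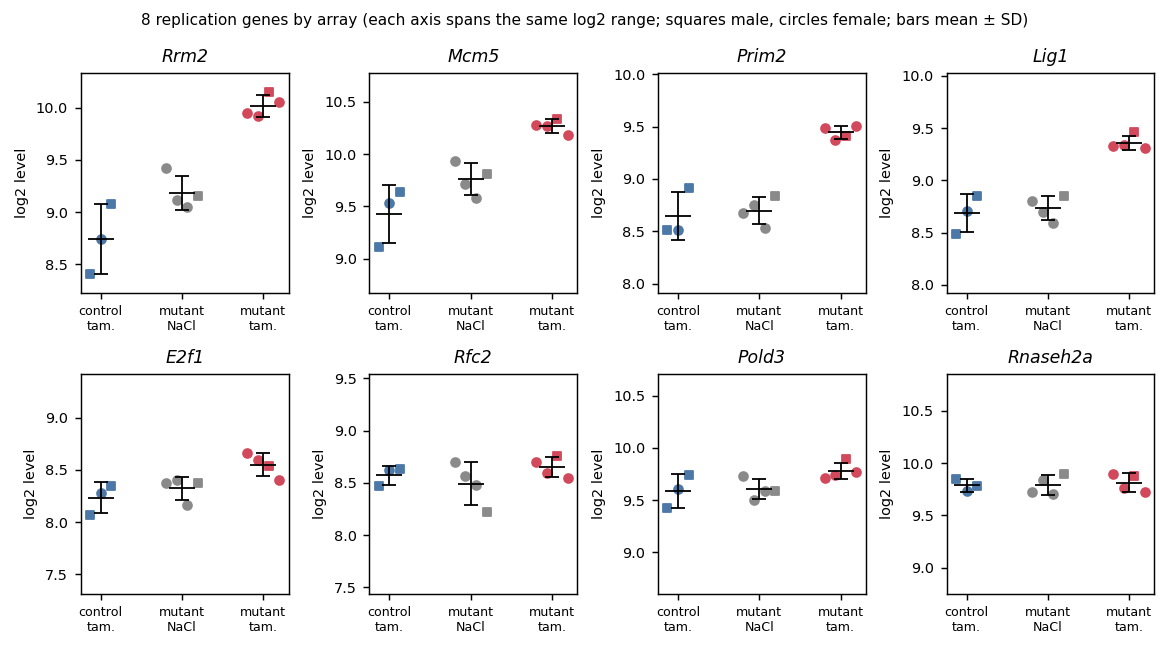
Log2 levels of 8 replication genes in every array by labelled group, on axes of equal span; squares are male and circles female arrays, and bars are the mean ± SD. Rrm2, Mcm5, Prim2 and Lig1 separate mutant tamoxifen from the 7 other arrays, while the groups overlap for Rfc2, Pold3 and Rnaseh2a.

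The chromatin-copying factors rose in 3 of 3 in both comparisons. Chaf1b, a subunit of the assembly factor that places histones on new DNA, read 9.15, 9.12, 9.12 and 9.18 in mutant tamoxifen, 8.25, 8.54 and 8.80 in control tamoxifen, and 8.73, 8.49, 8.39 and 8.75 in mutant NaCl. The 4 mutant tamoxifen arrays lay within a narrow band above all others. Chaf1b was higher by 0.64 ± 0.132 (SE; 1.56-fold, limma adjusted p = 0.00629) than in control tamoxifen and by 0.55 ± 0.115 (SE; limma adjusted p = 0.00626) than in mutant NaCl. Chaf1a rose by 0.55, and Uhrf1, which directs maintenance methylation to copied DNA, by 0.69 against control tamoxifen.

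E2f1, the transcription factor of the set, moved less. It read 8.66, 8.59, 8.54 and 8.40 in mutant tamoxifen, 8.07, 8.28 and 8.35 in control tamoxifen, and 8.37, 8.40, 8.16 and 8.37 in mutant NaCl. Mutant tamoxifen was above all controls but met mutant NaCl at its lowest array. It rose against control tamoxifen by 0.32 ± 0.0964 (SE; 1.24-fold, limma adjusted p = 0.0361), and against mutant NaCl the difference was 0.22 ± 0.0837 (SE; limma adjusted p = 0.0797). E2f1, Gins3 and Pold2 were thus the 3 genes past the threshold against control tamoxifen but not against mutant NaCl; whether their difference varied between the reference groups was not tested. Single-gene calls were followed under the alternatives only for the replication genes whose values are given in every array. Among those, these 3 calls were the least firm. That of Gins3 was lost when any single array other than control tamoxifen replicate 3 was left out (0.24 to 0.41, limma adjusted p from 0.0535 to 0.138). That of E2f1 was lost without mutant tamoxifen replicate 1, 2 or 3, control tamoxifen replicate 1 or 2, or mutant NaCl replicate 4 (0.25 to 0.36, limma adjusted p from 0.0589 to 0.121). That of Pold2 was lost without mutant tamoxifen replicate 1 or 3, control tamoxifen replicate 1 or 2, or mutant NaCl replicate 4 (0.27 to 0.49, limma adjusted p from 0.053 to 0.105). All 3 calls were also lost with female arrays alone (limma adjusted p = 0.256 for E2f1, 0.108 for Gins3 and 0.171 for Pold2), with only the compared groups fitted (0.0761, 0.113 and 0.0818) and over all transcript clusters (0.0546, 0.0683 and 0.0516). That of E2f1 was lost after a second quantile normalisation as well (limma adjusted p = 0.0526). Against mutant NaCl, Pold2 passed the threshold without control tamoxifen replicate 1 (0.26, limma adjusted p = 0.0215), with female arrays alone (0.31, limma adjusted p = 0.0419) and with only the compared groups fitted (0.26, limma adjusted p = 0.0329), and E2f1 without mutant tamoxifen replicate 4 (0.27, limma adjusted p = 0.046).

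**Figure D4:**
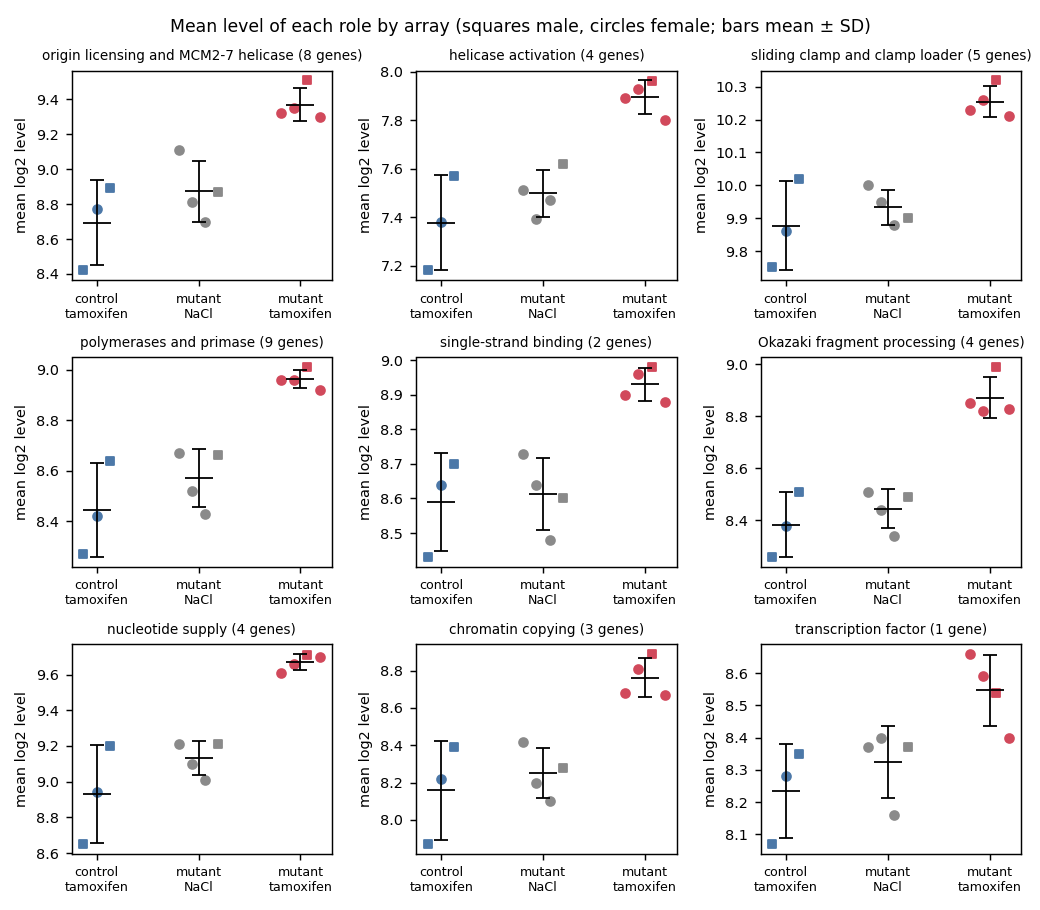
Mean log2 level of the genes of each role in every array by labelled group; squares are male and circles female arrays, bars are the mean ± SD, and each panel has its own axis. The mutant tamoxifen arrays lie above the 7 others in each panel except that of E2f1, the only transcription factor, where the lowest meets mutant NaCl at 8.40.

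The reference groups were not told apart past limma's adjusted threshold at this number of arrays. Between mutant NaCl and control tamoxifen, which differ in both genotype and gavage, limma called 0 of the 40 genes and 0% of all genes. At an unadjusted p under 0.05 the counts were 4 of the 40 (Mcm5, Pcna, Pole2 and Rrm2, all higher in mutant NaCl) and 1625 of all genes, or 8.15%. The fitted difference was above 0 for 37 genes, with a median of 0.14 beside -0.009 over all genes, and the mean of mutant NaCl lay between the other group means for 38 of the 40 (22.1% of all genes). All mutant NaCl arrays lay above all controls for 0 of the 40 genes (2.82% of all genes). The median fell by most when control tamoxifen replicate 1 was left out, to 0.04, and was 0.21 without control tamoxifen replicate 3.

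Within groups the 40 genes varied more than the median gene, most of all among controls. Their median SD was 0.187 in control tamoxifen, 0.134 in mutant NaCl and 0.0879 in mutant tamoxifen, beside 0.0755, 0.078 and 0.0746 over all genes. Control tamoxifen replicate 1 was lowest of its group for 36 of the 40 genes and lowest of all 11 arrays for 33, and control tamoxifen replicate 3 was highest of its group for 39. In mutant tamoxifen, replicate 3 was highest of all arrays for 25 genes. Control tamoxifen replicates 1 and 3 are both male, so the low and the high control were of the same sex. The male minus female term called 0 of the 40 genes (0.0351% of all genes, or 7), with 1 at an unadjusted p under 0.05 (Cdt1, 1209 of all genes) and a median of 0.05.

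Most replication genes outside the 40 rose too. Of 42 measured, 28 rose and 1 fell against control tamoxifen (median 0.36), and 25 rose and 2 fell against mutant NaCl (median 0.27). Beside these counts and those of the lists below, 12.9% of all genes rose and 11.8% fell against control tamoxifen. Against mutant NaCl the shares were 12.5% and 10.7%. Those with the smallest p were Nasp, a histone chaperone (0.63, limma adjusted p = 0.000618), Orc6 of the origin recognition complex (0.57, 0.000645), Topbp1, which acts in helicase activation and checkpoint signalling (0.66, 0.000672), and the nuclease Exo1 (0.65, 0.000744). Rrm2b, the p53-induced ribonucleotide reductase subunit used outside S phase, fell, by 0.25 against control tamoxifen (limma adjusted p = 0.0282) and by 0.23 against mutant NaCl (limma adjusted p = 0.0196). Of the origin recognition subunits, Orc3 (0.03, limma adjusted p = 0.766) and Orc5 (0.15, limma adjusted p = 0.116) were not past the threshold against control tamoxifen. The nucleotide kinase Dtymk was not past it in either comparison (0.29, limma adjusted p = 0.0644, and 0.23, limma adjusted p = 0.0873). Samhd1, which breaks down deoxynucleotides, fell by 0.42 against mutant NaCl (limma adjusted p = 0.0324), and its difference from control tamoxifen was -0.30 (limma adjusted p = 0.149).

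Among G1/S control genes 13 of 24 rose and 0 fell against control tamoxifen (median 0.23), and 11 rose and 1 fell against mutant NaCl (median 0.16). E2f2 had the smallest p, with 1.11 (limma adjusted p = 8.19e-05) against control tamoxifen and 0.96 (limma adjusted p = 5.75e-05) against mutant NaCl. It was followed by the S-phase kinase Cdk2 (0.58, limma adjusted p = 0.000841), the repressor E2f8 (0.96, limma adjusted p = 0.002) and the ubiquitin ligase subunit Skp2, which marks p27 for degradation (0.54, limma adjusted p = 0.00242). Cdk6 fell, by 0.28 against mutant NaCl (limma adjusted p = 0.0362). Of 9 cell cycle inhibitors, 2 rose and 3 fell against control tamoxifen. Cdkn2b fell by 0.61 (limma adjusted p = 0.000577), Btg1 by 0.49 (limma adjusted p = 0.0011) and Cdkn1b, which encodes p27, by 0.19 (limma adjusted p = 0.0183). All 3 also fell against mutant NaCl, by 0.32, 0.30 and 0.19. Cdkn3 rose by 0.69 (limma adjusted p = 0.0104) and Cdkn2c by 0.28 (limma adjusted p = 0.0485) against control tamoxifen.

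Mitosis genes rose in 25 of 25 against control tamoxifen and in 17 of 25 against mutant NaCl, and 0 fell. Their median log2 difference was 0.83 from control tamoxifen and 0.45 from mutant NaCl, against 0.58 and 0.46 for the replication genes. The smallest p belonged to Kif23 (1.17, limma adjusted p = 0.000744), Cdc25c (0.77, limma adjusted p = 0.0011), Kif20a (0.81, limma adjusted p = 0.00141) and Ttk (0.88, limma adjusted p = 0.00158). Between mutant NaCl and control tamoxifen, limma called 0 of the 25 mitosis genes, but all 25 were higher in mutant NaCl. At an unadjusted limma p under 0.05 there were 20, where 8.15% of all genes reached it in either direction. The mitosis median there was 0.40 and the replication median 0.14. These comparisons share arrays, and the difference between the lists was not tested. Without control tamoxifen replicate 1 the medians were 0.25 and 0.04. The array order also differed between the lists: mutant tamoxifen replicate 3, the highest for replication at 9.21, was the lowest of its group for mitosis at 9.27, where the others read 9.45, 9.55 and 9.48. In promoter windows, the E2F words occurred in 1 of 19 mitosis genes (5.3%) and TTTGAA in 14 of 19 (73.7%). The CCAAT box also occurred in 14 of 19 (73.7%), against 55.9% of the replication genes.

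**Figure D5:**
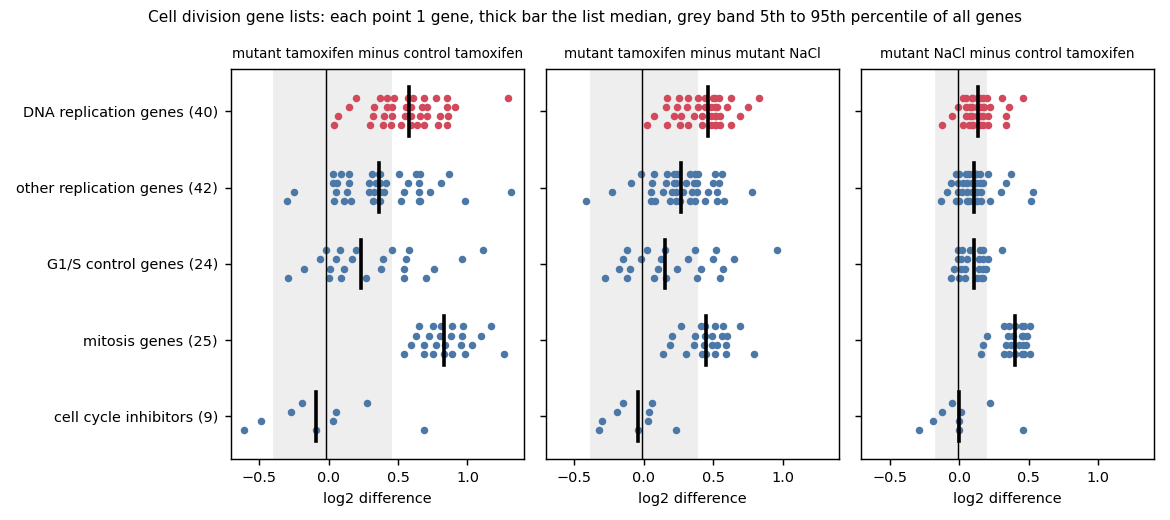
Fitted log2 differences of the replication genes beside the other replication, G1/S control, mitosis and inhibitor lists, for the 3 comparisons; points are genes, thick bars are list medians and the grey band is the 5th to 95th percentile of all genes. The replication and mitosis lists lie almost wholly above 0 in both mutant tamoxifen comparisons, and the inhibitors straddle 0 with a median of -0.09 against control tamoxifen.

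Markers of some cell types shifted as well, some lower and some higher. In bulk tissue fewer cells of a type and less RNA per cell cannot be told apart. Smooth muscle markers fell in 10 of 10 against control tamoxifen (median -0.49), where 11.8% of all genes fell. Their mean levels were 11.74 to 11.90 in mutant tamoxifen, 12.28 to 12.42 in control tamoxifen and 12.13 to 12.41 in mutant NaCl. Absorptive colonocyte markers fell in 6 of 10 and rose in 1 (median -0.72), from 12.06 to 12.40 in control tamoxifen and 11.91 to 12.03 in mutant NaCl to 11.01 to 11.28 in mutant tamoxifen. Neutrophil markers rose in 6 of 8 (median 0.70), from 7.84 to 8.22 and 7.97 to 8.12 to 8.68 to 9.16. Epithelial markers rose in 2 of 10 against control tamoxifen, a share near the 12.9% of all genes that rose. Against mutant NaCl they rose in 4 of 10, where 12.5% of all genes rose. Their mean levels were 12.01 to 12.16 in mutant tamoxifen, 11.89 to 11.98 in control tamoxifen and 11.89 to 11.95 in mutant NaCl. The part of these shifts in the replication result was not tested.

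Of 6 crypt base stem cell markers, Smoc2 rose by 0.53 (limma adjusted p = 0.00585), while Ascl2 fell by 0.59 (limma adjusted p = 0.0103) and Rnf43 by 0.41 (limma adjusted p = 0.0079) against control tamoxifen. The list had mean levels of 8.79 to 8.99 in mutant tamoxifen, 8.75 to 9.08 in control tamoxifen and 8.85 to 9.02 in mutant NaCl. Of 5 germinal centre B cell markers 0 rose and 0 fell in either comparison (7.38 to 7.62 against 7.37 to 7.66 and 7.37 to 8.30). The same held for 7 B cell and 6 T cell markers. At an unadjusted p under 0.05, limma gave 0 in each of these 3 lists against control tamoxifen. Against mutant NaCl it gave 1, a T cell marker that was lower. Mutant NaCl replicate 1 had the highest mean of all arrays for B cell markers (9.22) and for germinal centre markers (8.30). Squamous epithelium markers, whose tissue adjoins the rectum, varied widely. Their mean levels were 6.59, 9.80 and 7.42 in control tamoxifen and 9.49, 9.65, 8.49 and 9.12 in mutant NaCl. In mutant tamoxifen they were 9.75, 9.91, 8.43 and 9.94. Against control tamoxifen, 0 of 8 were past limma's threshold and 2 had an unadjusted p under 0.05. All 8 differences there were above 0, with a median of 1.17 and 5 at least 2-fold higher. Against mutant NaCl the median was 0.29. Control tamoxifen replicate 1 was lowest for squamous markers and for replication genes alike, while replicate 3, next lowest for squamous markers, was the highest control for replication. Mutant tamoxifen replicate 3 was lowest of its group for squamous markers and highest for replication. That array and control tamoxifen replicates 1 and 3 are male. In mutant NaCl the male array, replicate 4, read 9.12 and the lowest, replicate 3, was female. The male minus female log2 difference of the squamous markers ran from -2.37 (Krt4) to -0.38 (Trp63). Krt13 had the smallest limma adjusted p for sex among them, at 0.487. The part of squamous tissue in the result was not tested.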

How the data were processed

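Total RNA of the rectal mucosa was hybridised to 1 array per mouse. The deposited values are log2 expression per transcript cluster, made by the authors with RMA in Expression Console, per the labels. RMA subtracts background, forces the arrays to a common distribution and sums up the probes of a cluster, which can hide a shift of all genes and shrinks small differences of dim genes. Command Console version 2.0 and Expression Console version 1.1 are named in the series' design text. Partek is listed in the submitters' processing notes with no role, and a genome build is not given in the sources used here. Levels were not compared between genes.

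Of 35556 transcript clusters, 21797 had 1 symbol in the platform annotation and gave 19946 genes, using the highest-mean cluster of a gene; the other 13759 clusters were left out. All 40 replication genes were measured by 42 clusters. Groups came from genotype and treatment in the labels. All 11 arrays were fitted using limma (version 3.58.1; R version 4.3.3) with group and sex as terms and a variance trend. Tests were two-sided, and p-values were adjusted over all genes by Benjamini-Hochberg with a threshold of 0.05. A rise or fall is a call at that threshold, ± values are standard errors of the fit, and intervals are 95%. No filter on dim genes was used. The fit was tested on simulated data.

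Values in every array are given for the gene of each role with the smallest p against control tamoxifen, the largest and smallest differences, every gene not past the threshold there, and every gene whose call differed between the comparisons of mutant tamoxifen. Of each other pathway list, the 4 with the smallest p and any that fell were named; Mcm6, Cdc6 and Pola1 were chosen for printing because of their promoter letters. Gins4, Rfc1, Rpa3, Orc3, Orc5, Dtymk and the stem cell markers were named after their values were seen. List genes with no single-symbol cluster were not analysed here. The members and lists were chosen with earlier results of these data known. With limma, of the remaining marker lists, 3 of 8 macrophage markers fell against control tamoxifen, where 11.8% of all genes fell. There 2 of 7 plasma cell and 1 of 7 fibroblast markers rose, where 12.9% of all genes rose. In the same comparison 0 of 6 endothelial markers changed (0 at an unadjusted p under 0.05). Against mutant NaCl, 0 of 8 macrophage markers fell, 2 of 7 plasma cell markers rose, and 4 of 7 fibroblast markers rose and 2 fell. The shares of all genes there were 12.5% and 10.7%. Promoter letters are from RefSeq, GRCm38.p6. Alternatives were female arrays alone, a fit of the compared groups by themselves, a fit without sex, leaving out the lowest 25% or 50% of genes, median centring, a second quantile normalisation, no variance trend, the mean of a gene's clusters, all clusters, and leaving out each array in turn.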

Additional observations from a re-analysis of the deposited data

Results flagged for a closer look

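In 32 groups of 4 arrays tested for a sample far from the others, 3 gave one; chance gives about 1 in 20. In mutant tamoxifen, Gins1 read 6.96 in replicate 4 where the other arrays read 7.23 to 7.28. In the same group, Gins3 read 7.29 in replicate 2 where the others read 7.05 to 7.08. In mutant NaCl, E2f1 read 8.16 in replicate 3 where the others read 8.37 to 8.40. The gap took up 0.836, 0.879 and 0.839 of the group's range.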

How the results depend on the processing

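The direction of each comparison's median and the absence of genes called lower held under all 21 alternatives for each comparison of mutant tamoxifen. Against control tamoxifen, 36 replication genes rose; 22 did with female arrays alone, and 24 (without mutant tamoxifen replicate 3) to 36 when 1 array was left out, with the share of all genes that rose then at 6.76% in the former. The median of 0.58 ranged from 0.49 (without control tamoxifen replicate 1) to 0.65 (without control tamoxifen replicate 3). Against mutant NaCl, 33 rose, with 23 (without mutant NaCl replicate 2 or 3) to 34 (without control tamoxifen replicate 1) when 1 array was left out. The share of all genes that rose was 9.39% without mutant NaCl replicate 2 and 11% without replicate 3. It was 13.4% without control tamoxifen replicate 1. The median of 0.46 ranged from 0.41 to 0.51. Between mutant NaCl and control tamoxifen 0 were called under every alternative, and the median of 0.14 ranged from 0.04 to 0.21. No paired analysis was possible because the labels give the groups no shared replicate numbers. Signal over background cannot be read from RMA values, and 6 of the 40 genes lay below the median level of all genes.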

Other observations

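Pcna and Tk1 each had a second transcript cluster. The clusters of Pcna differed by 0.001 to 0.023 on the log2 scale in every array, and the second gave 0.42 against control tamoxifen (limma adjusted p = 0.00487 over all clusters) and 0.24 against mutant NaCl (limma adjusted p = 0.03). The clusters of Tk1 were 0.42 to 0.68 apart, and the second gave 0.64 (limma adjusted p = 0.00496) and 0.38 (limma adjusted p = 0.0249).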
